A study of Mus musculus with 5 samples.

Results

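Tnf, Lta and Ltb are neighbouring genes on mouse chromosome 17 that encode tumour necrosis factor, lymphotoxin alpha and lymphotoxin beta. They were followed through all probe sets annotated to them alone, which gave 3 of the 8251 genes with a probe set of their own and 4 of the 12488 probe sets of the array: 1 for Ltb, 2 for Lta and 1 for Tnf. All 4 passed the filter on low values. No probe set was annotated to these genes together with another gene.

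The 5 arrays measured polyadenylated RNA of mouse cell lines. A20, labelled a memory B cell line and here not the protein of that name, had 1 array and was grown without G418. The other 4 arrays were derivatives of AxJ, a plasma cell line, each a stable transfectant kept in G418: hnRNP-F subclones B5 and D6 (2 arrays), which overexpress the RNA-binding protein hnRNP-F, a line that overexpresses the related hnRNP-H (1 array) and a line with empty vector (1 array). The submitters picked clones by western blot, so each array stands for a single selected line, and no line was measured more than once. The cell line and the G418 cannot be told apart in the comparison of A20 with AxJ. The question put to these genes is how their transcripts differ between the B cell line and the plasma cell lines, and whether hnRNP-F overexpression changes them.

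TNF and lymphotoxin alpha each form homotrimers that signal through the receptors encoded by Tnfrsf1a and Tnfrsf1b. Lymphotoxin alpha also joins lymphotoxin beta, which is anchored in the membrane, in a heterotrimer that binds the lymphotoxin beta receptor, encoded by Ltbr. B cells are a known source of this heterotrimer, which maintains follicular dendritic cells and the follicles of lymphoid organs, and NF-kB is known to activate the 3 genes.

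The promoters are shown because the 3 genes are neighbours and, as described below, had signals that were high in the same cell line. They are the 250 bases before each annotated start, from RefSeq on GRCm38.p6. All 3 genes were found in that table, by symbol. Capitals mark matches, on either strand, to the NF-kB consensus motif, to GAGGAA, an Ets core, and to TATAAA.
Ltb promoter, chr17:35194257-35194506, plus strand: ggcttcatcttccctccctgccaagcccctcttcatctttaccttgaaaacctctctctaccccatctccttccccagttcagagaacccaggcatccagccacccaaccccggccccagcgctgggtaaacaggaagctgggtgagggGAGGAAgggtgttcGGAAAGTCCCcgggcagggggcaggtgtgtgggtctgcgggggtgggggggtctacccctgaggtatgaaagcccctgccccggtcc
Tnf promoter, chr17:35202008-35202257, minus strand: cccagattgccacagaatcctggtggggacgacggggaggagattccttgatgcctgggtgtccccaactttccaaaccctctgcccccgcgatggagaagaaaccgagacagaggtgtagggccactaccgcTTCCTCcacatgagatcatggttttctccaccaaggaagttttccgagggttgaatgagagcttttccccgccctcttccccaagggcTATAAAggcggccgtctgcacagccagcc
Lta promoter, chr17:35205352-35205601, minus strand: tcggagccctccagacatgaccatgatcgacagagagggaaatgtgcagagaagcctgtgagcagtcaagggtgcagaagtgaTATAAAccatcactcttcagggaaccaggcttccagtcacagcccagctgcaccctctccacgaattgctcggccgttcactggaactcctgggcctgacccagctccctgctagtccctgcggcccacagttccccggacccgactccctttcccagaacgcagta
The NF-kB consensus was found in the Ltb window only, 87 bases before the start on the minus strand, and in 7.25 percent of 32851 promoter windows of this length. A looser form of the motif, with any bases between its ends, lay in all 3 windows, but also in 45.8 percent of all windows. TATAAA lay 29 bases before the start of Tnf and 167 bases before that of Lta (12.4 percent of windows). GAGGAA lay in the Ltb window, 101 bases before the start, and reads ttcctc in the Tnf window, 117 bases before the start, since it lies on the other strand there (23.3 percent of windows). The octamer motif of immunoglobulin promoters lay in none of the 3 (1.6 percent). No marked match overlaps another. These matches describe the letters of the windows, and the arrays do not measure binding.

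Array quality was as follows. Medians of the deposited intensities lay between 33.9 (A20) and 41.7 (empty vector). The Gapdh control probe sets gave 5' over 3' ratios, which fall with RNA degradation, of 0.384 in A20, 0.181 in B5, 0.683 in D6, 0.866 in hnRNP-H and 0.212 in empty vector. As for the labels, all 7 measured B cell markers read higher in A20 than in all 4 AxJ lines and 5 of them rose in the test. Of 7 plasma cell markers 5 fell in A20, Prdm1 (Blimp-1) among them. Over all probe sets tested, 26 percent read higher in A20 than in all 4 AxJ lines, 2.9 percent rose and 2.99 percent fell. Of the 7 B cell markers, 5 exceeded the level of the filter in B5 and in D6, and 4 in hnRNP-H and in empty vector. Pax5 and Cd79b read 16.3 to 57.2 and 432 to 755 in AxJ, while Cd22 and Spib stayed at 5.90 to 11.7 and 11.7 to 19.2. Some B cell markers, but not all, were thus read in the AxJ lines. Of the T cell markers Cd3d, Cd3e, Cd3g, Thy1, Cd8a and Cd247 none exceeded 21.8, the level of the filter, on any array, while the seventh, Cd4, read 34.0 in A20 and 33.7 to 66.1 in the AxJ lines. The 5 NK cell markers summed to at most 89.2, and none exceeded the level of the filter in B5, D6 or hnRNP-H. In empty vector Gzmb (41.3) and Ncr1 (26.0) exceeded it, and in A20 Gzmb (38.7) and Prf1 (22.1).

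Ltb encodes the membrane anchor of the heterotrimer. Its deposited intensity was 1911 in A20, against 133 in B5, 43.7 in D6, 33.7 in hnRNP-H and 33.8 in empty vector. A20 was thus 14.4 times the highest AxJ line, and B5 stood apart from the other AxJ lines, which lay within 33.7 to 43.7. After quantile normalisation Ltb read 2115 in A20 and 32.2 ± 3.42 (SD, n = 2) in the AxJ controls, that is, hnRNP-H and empty vector. On the log2(intensity + 6.55) scale Ltb rose by 5.78 with an SE of 0.60 (95 percent interval 4.40 to 7.15, limma adjusted p = 0.00137).

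Lta had 2 probe sets that disagreed. Set 102630_s_at had deposited intensities of 715 in A20, 29.6 in B5, 23.9 in D6, 15.5 in hnRNP-H and 11.2 in empty vector. A20 was 24.2 times the highest AxJ line, and the 4 AxJ lines lay near the level of the filter. This set rose in A20 by 5.20 with an SE of 0.51 (95 percent interval 4.03 to 6.36, limma adjusted p = 0.00106).

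Lta set 100327_at had deposited intensities of 47.8 in A20, 51.4 in B5, 55.0 in D6, 27.5 in hnRNP-H and 77.7 in empty vector. A20 lay inside the range of the AxJ lines, and the highest and lowest arrays were the controls. Its log2 difference between A20 and the AxJ controls was 0.11 (SE 0.58, 95 percent interval -1.21 to 1.44, limma adjusted p = 0.951). The _s in the name of the other set is the maker's sign for probes that may be shared by several transcripts. Which part of the Lta transcript either set reads is not known here, so the rise of Lta in A20 rests on the 102630_s_at set.

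Tnf encodes the inflammatory cytokine of the locus. Its deposited intensity was 237 in A20, 35.6 in B5, 7.53 in D6, 10.2 in hnRNP-H and 6.35 in empty vector. A20 was 6.68 times the highest AxJ line, and of the AxJ lines only B5 exceeded the level of the filter. Tnf rose by 4.003 (SE 0.75, 95 percent interval 2.28 to 5.72, limma adjusted p = 0.0201). Since the controls were dim, the pseudocount holds down this difference, and the call was lost without empty vector (log2 difference 3.69, limma adjusted p = 0.0738).

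In all, 3 of the 4 probe sets rose in A20 and none fell, against 2.9 percent of 9107 probe sets tested that rose and 2.99 percent that fell. For the same 3 sets A20 lay above all 4 AxJ lines, which held for 26 percent of all probe sets tested. A20 was measured once, and its spread is taken to be that of the AxJ lines.

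**Figure D1:**
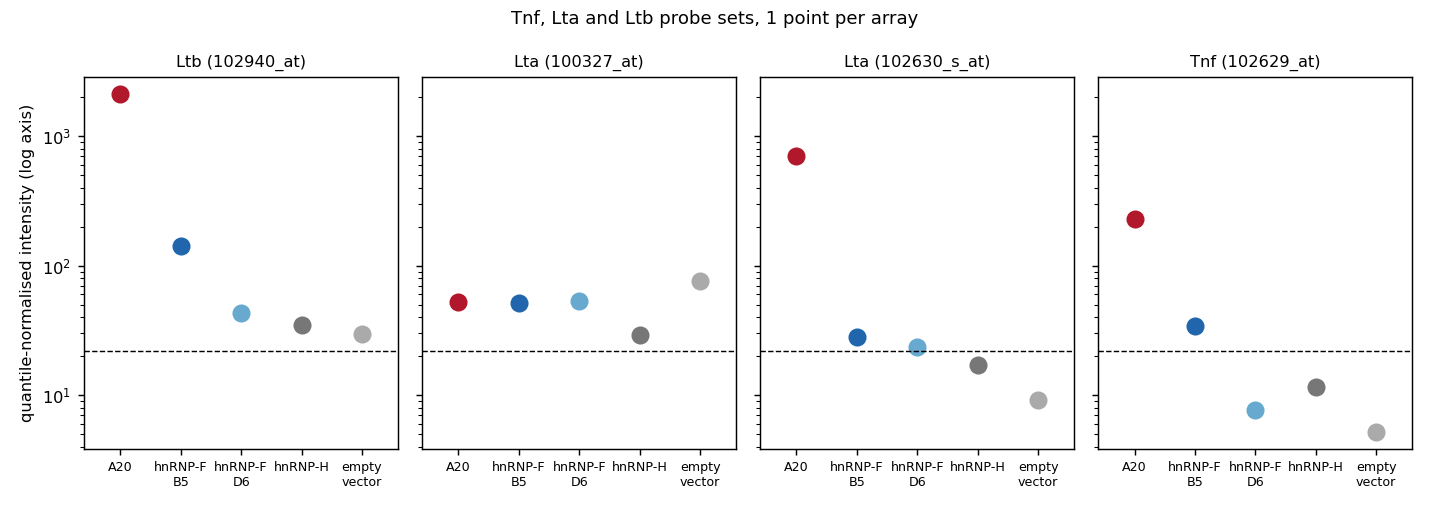
Quantile-normalised intensity (log axis) of the 4 probe sets, 1 point per array, with A20 first, then the hnRNP-F clones and the controls. The dashed line is the level of the filter, 21.8. A20 stands far above the AxJ lines in 3 panels, B5 is next in these, and the Lta set 100327_at shows no such gap.

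Overexpression of hnRNP-F moved none of the 4 sets past the threshold. Quantile-normalised Ltb was 141 in B5 and 42.7 in D6, against 34.6 in hnRNP-H and 29.8 in empty vector, which differ by 1.14 on the log2 scale with an SE of 0.49 (limma adjusted p = 0.790). Both clones lay above both controls, but most of the difference came from B5, and it was 0.35 without that clone. For Lta set 102630_s_at B5 read 28.2 and D6 read 23.7, against 17.02 in hnRNP-H and 9.11 in empty vector, which gave 0.75 on the log2 scale with an SE of 0.42 (limma adjusted p = 0.790). Here too the groups did not overlap. Both clones lay above both controls for these 2 of the 4 sets, against 18.2 percent of all probe sets tested.

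Tnf was 34.1 in B5 and 7.61 in D6, against 11.6 in hnRNP-H and 5.21 in empty vector, so the groups overlapped. The clones exceeded the controls by 0.72 on average (SE 0.61, limma adjusted p = 0.828), but -0.04 without B5. Lta set 100327_at differed by 0.12 (SE 0.47, limma adjusted p = 0.975), with clones at 51.4 and 53.7 between the controls at 29.0 and 76.7. The 95 percent intervals of the 4 sets reached from -0.96 to 2.26, so changes of the size that Ltb, Tnf and Lta set 102630_s_at had in A20 lay outside them. Over all probe sets, 0.011 percent (1 of 9107) passed upward in this comparison and 0 percent downward. Before adjustment, 5.79 percent of all probe sets lay under the threshold of 0.05 in the limma fit, as did 1 of the 4 sets, Ltb.

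The 2 clones differed from each other in Ltb and Tnf, with 1 array each and so no test. Deposited Ltb was 43.7 in D6 and 133 in B5, and deposited Tnf 7.53 in D6 and 35.6 in B5. On the log2 scale D6 minus B5 was -1.58 for Ltb, -1.52 for Tnf, -0.20 for Lta set 102630_s_at and 0.06 for Lta set 100327_at. A difference of -1 or below was found for 5.74 percent of all probe sets. Between hnRNP-H and empty vector, Ltb, Tnf and Lta set 102630_s_at differed by 0.18, 0.62 and 0.59, and Lta set 100327_at by -1.23, where 8.16 percent of all probe sets lay at -1 or below.

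For Ltb, Tnf and Lta set 102630_s_at, the same order recurred, with A20 highest and B5 next, as it did for 6.16 percent of all probe sets tested. The excess of B5 over the mean of the other AxJ lines, as a percent of the same excess in A20, was 5.04 for Ltb, 1.70 for this Lta set and 11.8 for Tnf. Over the 264 probe sets that rose in A20, this percent had a median of 2.79 and quartiles of -1.12 and 10.7, and for D6 the median was 1.19. B5 was the highest AxJ line for 106 of these 264 (40.2 percent), against 27.1 percent of all probe sets tested. The 7 B cell markers summed to 6045 in A20, 796 in B5, 934 in D6, 748 in hnRNP-H and 638 in empty vector, so B5 was not the highest AxJ line in that sum. The 8 myeloid markers summed to 430 in B5, against 211 to 276 on the other arrays, of which Cd14 gave 251 in B5 and 84.9 to 129 elsewhere. Lyz2 read 47.0 in B5 and at most 4.22 elsewhere, but B5 was the highest AxJ line for 3 of the 8, and Mpo and Fcgr3 were lowest there, at 2.25 and 10.9. The 7 T cell markers summed to 138 in B5, of which Cd4 gave 66.1, and to 61.8 to 84.1 elsewhere. The part of other cells or of A20 material in the B5 values was not tested.

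**Figure D2:**
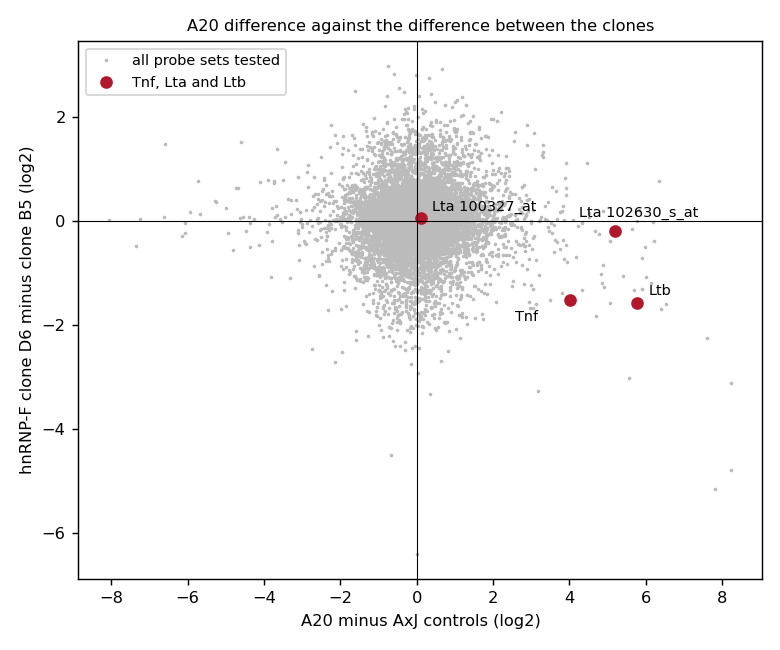
The log2 difference of A20 minus the AxJ controls (horizontal) against that of hnRNP-F clone D6 minus clone B5 (vertical), with all 9107 probe sets in grey and the 4 sets of Tnf, Lta and Ltb in red. Ltb and Tnf lie at 5.78 and 4.003 across and at -1.58 and -1.52 down, and Lta set 102630_s_at lies far right but near 0 in height.

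Besides Ltb and Tnf, the ligand genes Tnfsf9 and Cd70 of the TNF superfamily rose in A20. Of 18 listed ligands 12 were on the array and 6 passed the filter, and of these Ltb, Tnf, Tnfsf9 and Cd70 rose and none fell, where 2.9 percent of all probe sets rose. Without the filter 2 of 12 rose, and without the intensity trend or without empty vector 2 of 6. Lta enters this count by its brighter set, which did not. Tnfsf9, which encodes the costimulatory ligand 4-1BBL, read 262 in A20, 21.8 in B5, 9.82 in D6, 17.5 in hnRNP-H and 6.29 in empty vector and rose by 3.93 (SE 0.66, limma adjusted p = 0.0132). Cd70, the ligand of CD27, read 462 in A20, 22.4 in B5, 73.0 in D6, 38.7 in hnRNP-H and 43.6 in empty vector and rose by 3.30 (SE 0.60, limma adjusted p = 0.0179), but not without empty vector (adjusted p = 0.0672), without hnRNP-H (0.0544), without the filter (0.0566) or without the intensity trend (0.0940). Unlike Ltb and Tnf, Cd70 was lowest in B5. Eda differed by -0.52, with its other tested set at 0.97, and neither passed. The T cell ligands Cd40lg and Fasl stayed at or below 15.04 on all arrays. Tnfsf9 passed the filter through A20 alone, and the 6 ligands below the filter were not tested.

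No receptor gene passed the test. Of 25 listed receptors 15 were on the array and 12 passed the filter, and none passed the limma test in either direction, with a median log2 difference of 0.28, against -0.04 over all probe sets tested. An unadjusted p under 0.05 was found for 3 of the 12, against 19.3 percent of all probe sets. Ltbr, the receptor of the heterotrimer, read 32.6 in A20, 36.6 in B5, 62.2 in D6, 7.93 in hnRNP-H and 20.7 in empty vector, that is, 0.98 higher in A20 than in the controls with an SE of 0.64 (limma adjusted p = 0.480). Tnfrsf1a differed by 0.27 (SE 0.79), with a second set at -1.25, and Tnfrsf1b by 0.53 (SE 0.48). Tnfrsf14, another receptor of lymphotoxin alpha, was not measured here under 1 symbol. Cd40, through which T cells activate B cells, read 115 in A20, 12.8 in B5, 32.1 in D6, 16.4 in hnRNP-H and 2.28 in empty vector, with a difference of 3.09 (SE 0.78, limma adjusted p = 0.0577). It passed under the authors' scaling (adjusted p = 0.0317), under median scaling (0.0310), with the larger pseudocount (0.0426) and without hnRNP-H (0.0392). Fas, a death receptor, differed by 1.99 (SE 0.98, limma adjusted p = 0.322), and passed without the filter (adjusted p = 0.0496). It read 31.0 in A20 and 0.79 to 4.79 in the AxJ lines, so it passed the filter through A20 alone. Tnfrsf17 (BCMA), known from plasma cells, differed by -1.21, Tnfrsf18 by -1.39 and Cd27 by -0.53 (its other set by 0.05), none past the threshold.

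**Figure D3:**
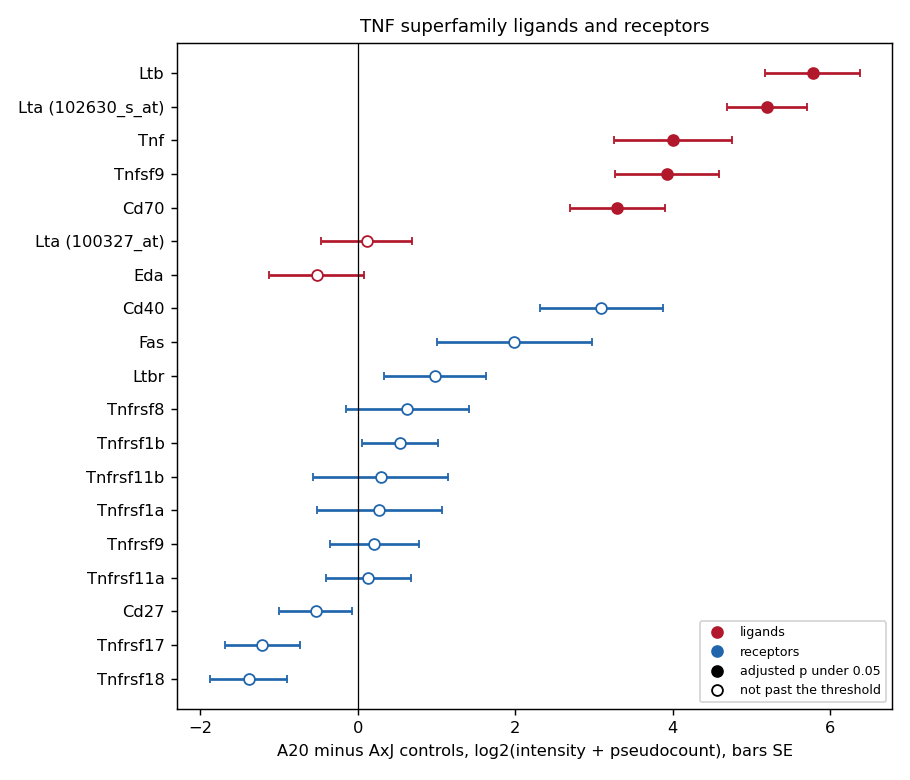
Log2 difference of A20 minus the AxJ controls for the TNF superfamily ligands (red) and receptors (blue) that passed the filter, with SE bars, filled where the limma adjusted p was under 0.05. The 5 filled points are ligand probe sets, from 3.30 (Cd70) to 5.78 (Ltb), and all receptor points are open.

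Downstream of the receptors, 1 gene of each of 3 lists passed, where 2.9 percent of all probe sets rose and 2.99 percent fell. Of 17 tested genes of receptor-proximal signalling, Traf4 rose by 1.72 in A20 (SE 0.38, limma adjusted p = 0.0341), a call lost without any single AxJ array (adjusted p from 0.0573 to 0.0959), and its other set differed by 0.61. The adaptors Tradd and Fadd differed by -0.12 and 0.43, and Birc3, an inhibitor of apoptosis that NF-kB induces, by -1.25 (adjusted p = 0.109). Of 7 tested NF-kB subunits and inhibitors, Bcl3, a nuclear cofactor of the family, rose by 2.08 (SE 0.46, limma adjusted p = 0.0341). The Bcl3 call was lost in 5 of 12 alternatives, with log2 differences of 1.66 to 2.51 over all 12. These were without hnRNP-H, B5 or D6, without the filter (limma adjusted p = 0.0793) and without the intensity trend (0.127). Rela, Relb and Nfkb2 differed by 0.07, 0.21 and -0.31. Of 11 tested genes known as targets of these ligands none rose, and Ier3, an immediate early gene, fell by 2.29 (SE 0.50, limma adjusted p = 0.0333). The Ier3 call was lost in 6 of 12 alternatives, with log2 differences of -2.56 to -1.97 over all 12. These were without any single AxJ array, without the filter (limma adjusted p = 0.0981) and without the intensity trend (0.0883). The number of targets that fell was 4 of 10 under the authors' scaling, 2 of 10 under median scaling and 4 of 11 with the 4 AxJ lines as 1 arm. It was 3 of 4 with the filter at the 60th percentile and 0 without the filter or the intensity trend, and moved either way with single AxJ arrays left out. Over all probe sets, 536 passed in either direction in the main fit. That total was 622 under the authors' scaling, 556 under median scaling, 580 with the filter at the 60th percentile, 311 without the filter and 145 without the trend. Gadd45b, Icam1 and Sod2 differed by -2.55, -1.91 and -1.70, with adjusted p of 0.0534, 0.0653 and 0.0560, and the other Gadd45b set by -0.77 (adjusted p = 0.380). Madcam1, which encodes an endothelial adhesion molecule, differed by 1.16 (adjusted p = 0.258). In the hnRNP-F comparison no gene of these 3 lists passed in limma, and 4 of the 17 signalling genes, 0 of the 7 NF-kB genes and 1 of the 11 targets lay under 0.05 before adjustment, against 5.79 percent of all probe sets.

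Among 13 tested transcription factors known at these genes, Nfatc1 rose, where 2.9 percent of all probe sets did. It read 158 in A20, 2.92 in B5, 4.02 in D6, 4.43 in hnRNP-H and 7.10 in empty vector, which is 3.75 above the controls on the log2 scale, with an SE of 0.74 (limma adjusted p = 0.0236). All 4 AxJ lines lay below the filter, which Nfatc1 passed through A20 alone. The call was lost with the filter at the 60th percentile (limma adjusted p = 0.115), where 0 of 10 factors rose. Of the 13 factors 3 rose under median scaling and 2 with the 4 AxJ lines as 1 arm. Egr1 differed by 2.40 (adjusted p = 0.0764), and Spi1, which encodes PU.1, by 0.33. Of 12 tested genes of TNF shedding and of TNF mRNA control none passed, and 3 had an unadjusted p under 0.05, near the 19.3 percent of all probe sets. Adam17, the sheddase of TNF, read 8.59 in A20, 16.0 in B5, 7.86 in D6, 9.73 in hnRNP-H and 40.1 in empty vector, and its log2 difference was -0.86 (SE 0.85). Zfp36, whose protein destabilises Tnf mRNA, differed by -0.03, Elavl1, whose protein stabilises it, by 1.11 (adjusted p = 0.0869, but 0.0492 under median scaling), and Rc3h2 by -2.30 (adjusted p = 0.192).

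The neighbours on chromosome 17 were tested beside the 3 genes. In the order of the GRCm38.p6 annotation Lst1, a leukocyte transcript, lies next to Ltb, followed by Tnf, Lta, Nfkbil1, Atp6v1g2, Ddx39b and H2-D1. Of 13 tested neighbours none passed in either direction in the main fit, where 2.9 percent of all probe sets rose and 2.99 percent fell. A rise was called for 1 of the 13 under the authors' scaling and for 2 under median scaling. Before adjustment in the main limma fit, 5 of the 13 lay under 0.05, against 19.3 percent of all probe sets. The median log2 difference of the 13 in A20 was 0.61. Lst1 read 241 in A20, 114 in B5, 73.6 in D6, 61.9 in hnRNP-H and 11.2 in empty vector, which is 2.83 above the controls with an SE of 0.73 (limma adjusted p = 0.0622). It passed under the authors' scaling (adjusted p = 0.0257), under median scaling (0.0329) and without hnRNP-H (0.0145). In the hnRNP-F comparison Lst1 differed by 1.50 (SE 0.60, limma adjusted p = 0.790). Aif1, below the filter and so not tested, read 20.5 in A20 and 2.03 to 5.16 in the AxJ lines. Of the others around the locus, Prrc2a differed by 0.53, Bag6 by 1.12 (its other sets by -1.61 to 0.43), Ddx39b by 0.88 and H2-D1 by -0.64, and Ly6g6c, farther off, by -1.67 (adjusted p = 0.133).

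**Figure D4:**
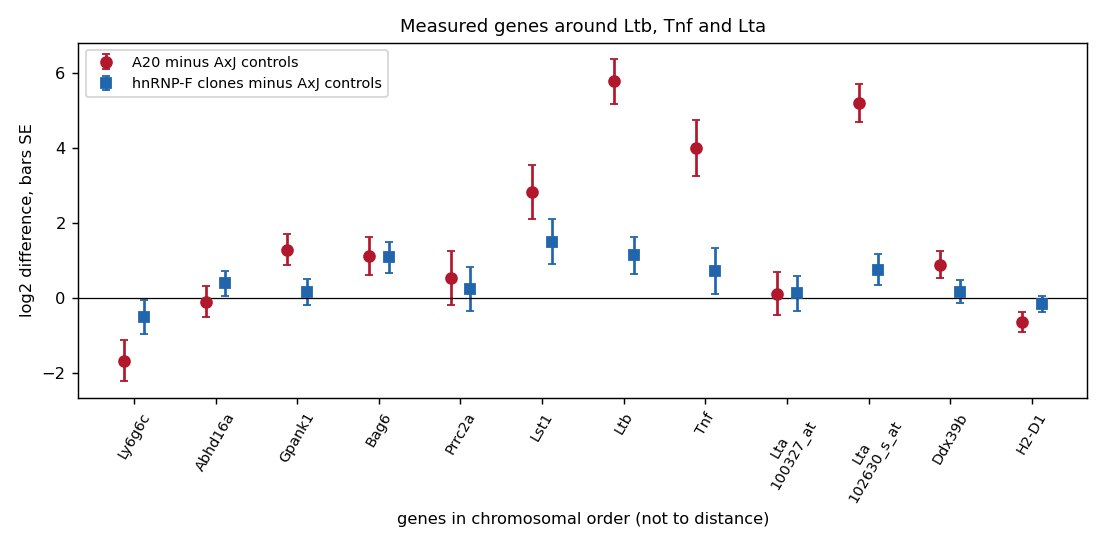
Log2 differences with SE bars for the tested genes around the locus, in chromosomal order and not to distance, for A20 (red circles) and the hnRNP-F clones (blue squares), each minus the AxJ controls. The red points of Ltb, Tnf and Lta set 102630_s_at reach 4.003 to 5.78, Lst1 is next with 2.83, and the rest of the neighbours lie between -1.67 and 1.28.

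The genes most alike in pattern were found by Pearson correlation of log2 levels over the 5 arrays among 4951 probe sets with a range of at least 1, as a description in which the A20 array carries most of the spread. For Ltb they were Synj2 (r = 0.999), Enkd1 (0.998), Rfc2 (0.998), Erdr1 (0.997) and Gnai2 (0.996), of which Erdr1 and Gnai2 rose in A20, by 6.12 and 1.74 (limma adjusted p = 0.000753 and 0.0219). For Tnf they were Rhox5 (r = 0.999), Irf3 (0.997), Bin1 (0.995), Rfc2 (0.994) and Ube2n (0.993). Rhox5 read 6853 in A20, 213 in B5, 18.6 in D6, 29.6 in hnRNP-H and 7.95 in empty vector. For the brighter Lta set, 100327_at, they were 2700097O09Rik, Sart3, Acyp2, Ackr2 and St3gal1 (r from 0.982 to 0.991), which were highest in empty vector and lowest in hnRNP-H.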

How the data were processed

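Polyadenylated RNA was selected on oligo dT and labelled with biotin, per the labels' protocols, and hybridised to 1 Affymetrix array per line. The authors deposited 1 linear intensity per probe set and array, and the deposited intensities had a mean of about 150 on each array after trimming 2 percent at each end. Software, background step and detection calls were not given in the sources. The number of arrays limits the precision.

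Of 12488 probe sets, 66 maker's controls were left out. The array annotation of 2016 gave the symbols, brought up to date by gene identifier, and 10855 probe sets had 1 symbol, 396 several and 1237 none. Because the A20 median lay -11.6 percent from the mean of medians, beyond the 10 percent allowed, arrays were quantile normalised. Levels are quantile-normalised unless called deposited. Differences are on the log2(intensity + 6.55) scale, with the 20th percentile of all values as the pseudocount, which understates changes of dim sets. The filter on low values left 9107 probe sets with at least 1 array above the 40th percentile, 21.8.

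The fit used limma 3.58.1 under R 4.3.3, lmFit followed by eBayes with trend, on the 5 arrays together, as hnRNP-F clones, AxJ controls and A20, with 2 residual degrees of freedom and a prior of 6.46. P-values are two-sided, adjusted by Benjamini-Hochberg over the 9107 probe sets, with a threshold of 0.05. Nothing says that repeated cultures were measured, so they reflect only how these arrays vary. With 2 arrays against 2, an exact permutation test cannot go below 1 in 3, so none was run. In simulated data, 50 probe sets were changed at each of the log2 sizes 1, 2, 3 and 5, all sizes together. The A20 comparison recovered 14, 54, 82 and 96 percent of them, and the hnRNP-F comparison 12, 68, 86 and 100 percent. The simulated hnRNP-F comparison gave 142 calls, where the data gave 1. Benjamini-Hochberg adjustment is stricter where fewer sets pass, so the hnRNP-F shares may overstate what could be recovered in the data.

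Lists held 1 probe set per gene, that of highest mean log2 level. Named from each list were up to 6 genes that passed, or else the 2 that differed most in A20, besides the members, Tnfrsf1a, Tnfrsf1b, Ltbr, Tnfrsf14 and Adam17. Other genes named were chosen after their values were seen. The members and lists were chosen with earlier results of these data known. Alternatives covered the pseudocount, filter, scaling, spread model, grouping and each AxJ array left out. For the promoters, the NF-kB consensus was added after the planned forms of the motif, a narrower one (found in the Ltb window only, and in 1.41 percent of all windows) and a looser one.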

Additional observations from a re-analysis of the deposited data

How the results depend on the processing

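No paired analysis was possible because the labels give the arrays no shared replicate numbers. The rises of Ltb and of Lta set 102630_s_at in A20 kept their direction and their call under all 12 alternatives, with log2 differences of 5.21 to 5.90 and 4.82 to 5.49. The Tnf rise lost its call without the filter on low values (4.003, adjusted p = 0.0559), without the intensity trend (4.003, adjusted p = 0.0765) and without empty vector. With each AxJ array left out in turn Tnf lay between 3.69 and 4.31 in A20 and between -0.0439 and 1.48 in the hnRNP-F clones. Lta set 100327_at, never past the threshold, lay between -0.50 and 0.73 in A20 and between -0.49 and 0.73 in the hnRNP-F clones, with its sign turned when hnRNP-H was left out. The count of probe sets past the threshold in A20, 536, became 311 without the filter, 145 without the trend and 245 to 667 with an array left out (245 without B5, 256 without D6). In the hnRNP-F comparison the count of 1 became 0 without the filter or the trend and 0 to 3 with an array left out (0 without B5, 3 without D6), where limma gave 527 an unadjusted p under 0.05 on all arrays. Of the other genes, Tnfrsf1a in A20 was -0.28 with the 4 AxJ lines as 1 arm and -0.76 to 1.31 with an array left out. In the hnRNP-F comparison Cd70 was -0.0026 with the pseudocount at the 10th percentile and -0.72 to 0.74 with an array left out, Tnfsf9 -0.16 to 0.75 and Adam17 -1.37 to 0.15. None of these sign changes concerned a called value, and the cause of the changes was not tested. Over the 16 other genes named by rule, 153 of the values for A20 kept direction and call, 23 lost the call, 9 gained one and 2 changed sign, and of those for the hnRNP-F clones 165 kept both and 6 changed sign. Precision is limited by having 5 arrays, while Tnf and Lta set 102630_s_at lay near or below the level of the filter in most AxJ lines.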
